A study of Mus musculus with 9 samples.

Results

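Pleiotrophin (Ptn) and midkine (Mdk) are secreted growth factors that bind heparin and are the only members of their family. This account covers both ligands and 6 cell-surface partners, Ptprz1, Alk, Sdc1, Sdc3, Sdc4 and Ncl, across tumors of 3 treatment groups. The genes were taken by symbol, 8 of the 22136 genes summed from the deposited tables. Ptn was selected on its measured level, which differed strongly between anti-B7-H3 and anti-PD1 tumors, so that difference is described here without a test. The other 7 were chosen by gene name for their known relation to Ptn.

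RNA came from skin tumors that YUMMER1.7 cells, a mouse melanoma line, formed under the skin of immunocompetent C57BL/6J mice. Dosing started at a small, preset tumor volume, with anti-B7-H3 (against the checkpoint protein encoded by Cd276), with anti-PD1 (against the T cell checkpoint receptor) or with an IgG isotype control, and each group has 3 libraries. Every host carried the same allografted line, so tumor cells and mouse stroma cannot be separated in these bulk libraries, and fewer cells of a type cannot be told apart from less RNA per cell. The labels do not say that each library came from its own mouse, so p-values reflect the spread among these samples alone, which may be technical.

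Pleiotrophin binds the receptor phosphatase encoded by Ptprz1 and blocks its activity, which leaves substrates such as beta-catenin more phosphorylated on tyrosine. Syndecans are membrane proteoglycans whose heparan sulfate chains hold such ligands at the cell surface, and syndecan-3 was described as a pleiotrophin receptor in neurons. Alk is a receptor tyrosine kinase for which both ligands were proposed as activators, and nucleolin (Ncl), mainly a nucleolar protein, binds midkine when it is at the cell surface.

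The transcripts carrying the signal can be read from the coding sequence, since the listed lengths are coding lengths. For Ptn, 2 coding transcripts are listed on GRCm38, chromosome 6, minus strand, and they share their first 451 coding bases. Their ends are shown because reads that reach the differing bases can tell them apart. Capitals mark coding bases that the other transcript lacks, which lie at chr6:36715707-36715762 for Ptn-201 and chr6:36741258-36741277 for Ptn-202.
Ptn-201: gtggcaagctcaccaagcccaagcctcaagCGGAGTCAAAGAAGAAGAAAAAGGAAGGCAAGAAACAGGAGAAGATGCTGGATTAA
Ptn-202: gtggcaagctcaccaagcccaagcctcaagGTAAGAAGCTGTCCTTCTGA
Of the Ptn reads over all 9 libraries, 6669.4 were assigned to Ptn-201 and 16.7 to Ptn-202. The Ptn signal described here is therefore that of the 507-base coding transcript.

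Syndecans are similar enough in their cytoplasmic ends to ask whether their reads could mix. The last 54 coding bases are shown for the 4 family members, with capitals where all 4 carry the same base. They lie at chr12:8791754-8791807 on the plus strand for Sdc1, chr15:33032487-33032540 on the plus strand for Sdc2, chr4:130822756-130822809 on the plus strand for Sdc3 and chr2:164426086-164426139 on the minus strand for Sdc4 (GRCm38, GENCODE M21).
Sdc1: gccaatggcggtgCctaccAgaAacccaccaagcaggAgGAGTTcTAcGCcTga
Sdc2: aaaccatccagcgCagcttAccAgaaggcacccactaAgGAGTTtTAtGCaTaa
Sdc3: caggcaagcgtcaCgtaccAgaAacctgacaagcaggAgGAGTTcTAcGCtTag
Sdc4: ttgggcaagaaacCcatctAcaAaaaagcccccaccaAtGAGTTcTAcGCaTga
Only 14 of the 54 bases were the same in all 4, most of them in the last codons. No run of 31 bases was shared by any of the 36 pairs among the main coding sequences of the 8 genes and Sdc2. Aligned end to end, Ptn and Mdk matched at 66.3% of aligned coding bases, and the syndecan pairs at 56.8 to 70.2%.

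On GRCm38, Ptn spans positions 36714929 to 36810220 and Ptprz1 22875502 to 23052916 of chromosome 6. Mdk spans 91929805 to 91932297 and Sdc4 164424247 to 164443887 of chromosome 2. Alk spans 71868972 to 72604627 of chromosome 17, and Sdc1 spans 8771323 to 8793715 of chromosome 12. Sdc3 lies at 130792537 to 130826319 of chromosome 4, and Ncl at 86344719 to 86359400 of chromosome 1. All 8 are protein-coding genes.

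The libraries held 8627930 to 27288766 estimated reads. In all, 13 genes each took more than 1% of a library, most of them predicted genes with names that begin with Gm. Together they took 8.48 to 30.2% of gene reads with anti-B7-H3, 17.7 to 39.9% with anti-PD1 and 86.4 to 91.0% with IgG, and no 95% Wilson interval reached more than 0.0327 percentage points from its share. Outside them, 7032190 to 13974497 reads were left with anti-B7-H3, 5170029 to 9231435 with anti-PD1 and 1394232 to 3696377 with IgG. Olfactory and vomeronasal receptor genes, expected to be silent in tumors, took 41.6 to 204 CPM (reads scaled to a common library total) of these with anti-B7-H3, 80.4 to 288 CPM with anti-PD1 and 733 to 4340 CPM with IgG. The IgG libraries were thus the shallowest for ordinary genes and the highest in this background. All CPM below were scaled by TMM, which sets the typical gene to no change. The 8 melanocyte lineage markers summed to 4.58 to 5.58 CPM with anti-B7-H3, 4.55 to 9.11 with anti-PD1 and 6.59 to 17.0 with IgG. Only 1 of them passed the read filter. Of those 8 genes, 2 had no reads in the anti-B7-H3 libraries and 1 had none in the anti-PD1 libraries.

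Ptn, the ligand with nearly all of the family's signal, had its lowest levels in anti-B7-H3 libraries and its highest in anti-PD1 libraries. It had 29.0, 20.0 and 20.0 CPM in the anti-B7-H3 libraries, 72.3, 74.0 and 51.0 CPM in the anti-PD1 libraries, and 31.1, 42.1 and 36.4 CPM in the IgG libraries. Every anti-B7-H3 library lay below every IgG library, and every anti-PD1 library lay above all others. Estimated Ptn reads behind these levels were 566 to 776 with anti-B7-H3, 992 to 1717 with anti-PD1 and 79 to 377 with IgG, so counting noise was largest in the IgG group.

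In the contrast that chose it, Ptn with anti-B7-H3 was at 0.349 times its level with anti-PD1 (log2 fold change -1.52 ± 0.22, SE) and ranked 2 of 12965 tested genes by edgeR p. That ranking is no evidence of a difference here. Against IgG, Ptn averaged 23.0 ± 5.18 CPM with anti-B7-H3 and 36.5 ± 5.49 CPM with IgG (SD, n = 3 each). The log2 fold change, -0.67 ± 0.22, did not pass (edgeR quasi-likelihood test, Benjamini-Hochberg adjusted p = 0.253). With anti-PD1 it averaged 65.8 ± 12.8 CPM, against 36.5 ± 5.49 CPM with IgG. That log2 fold change, 0.84 ± 0.22 (SE; 95% interval 0.36 to 1.33), also missed the threshold in edgeR (adjusted p = 0.1). DESeq2 put the same difference past the threshold (log2 fold change 0.84, adjusted p = 0.0179), and over the alternatives other than library totals the adjusted p ran from 0.0179 to 0.909. These comparisons with IgG use the same antibody libraries through which Ptn was chosen, and both use the same IgG libraries. Scaled by library totals, without TMM, all tested genes had a median log2 fold change of 3.37 for anti-B7-H3 over IgG and Ptn 2.61, so that Ptn lay below the typical gene on that scale too.

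**Figure D1:**
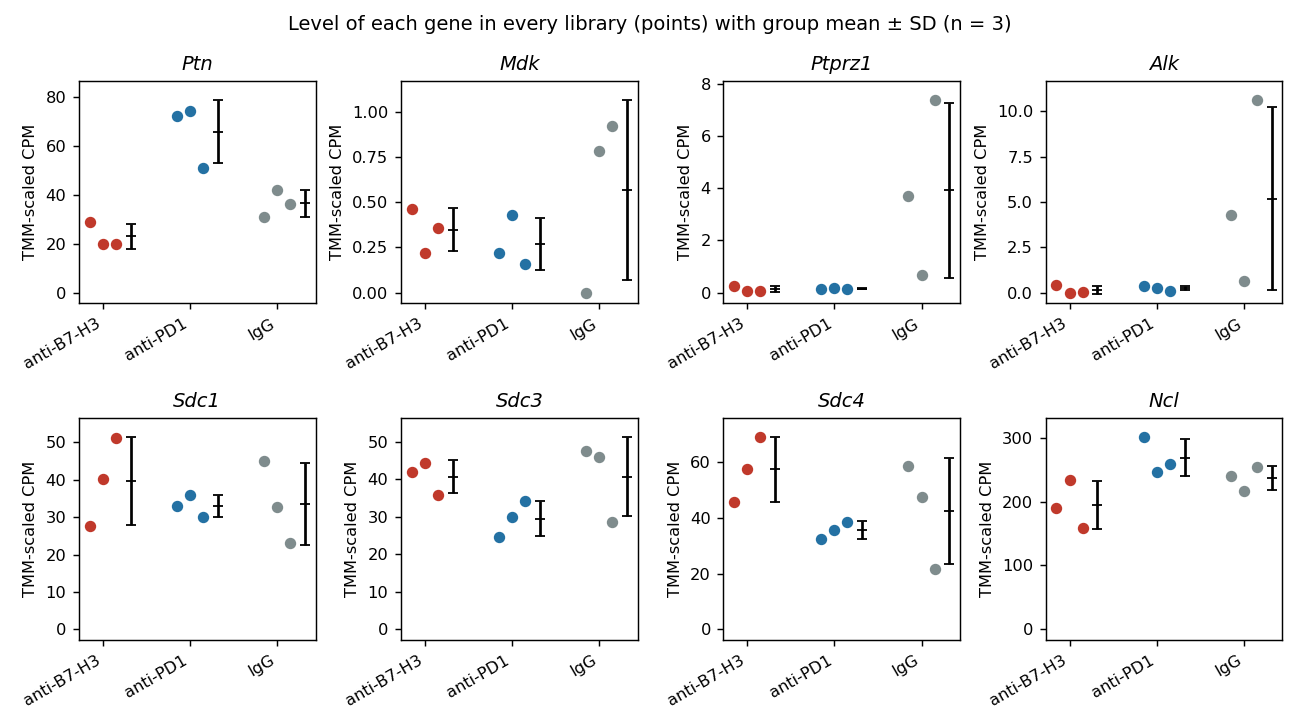
TMM-scaled CPM (vertical axis, linear, its own range for each gene) of each of the 8 genes in anti-B7-H3, anti-PD1 and IgG libraries. Points are libraries, and bars are the mean ± SD of 3. Ptn shows anti-PD1 libraries at 51.0 to 74.0 CPM above all others, while Ptprz1 and Alk lie near 0 outside the IgG group.

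Several stromal cell types can make Ptn, so markers of stromal and some other cell types are given beside it. The 10 fibroblast markers summed to 5670 to 8980 CPM with anti-B7-H3, 5150 to 6670 with anti-PD1 and 2950 to 7920 with IgG, so their totals overlapped where Ptn did not. Within that list, Fap, a fibroblast surface protease, was at 4.64 CPM in anti-B7-H3 and 10.3 CPM in anti-PD1 libraries, and Postn, a matrix protein, at 396 CPM in anti-B7-H3 and 679 CPM in anti-PD1 libraries, while Col1a1, a collagen chain, was at 907 CPM in anti-B7-H3 and 437 CPM in anti-PD1 libraries. These 3 were picked after their values were seen because their groups did not overlap, beside 15.4% of all tested genes, and none passed in edgeR (adjusted p = 0.749 for each). Over the whole list, 5 of 10 were positive for anti-B7-H3 over anti-PD1, with a median log2 fold change of -0.04. In edgeR 4 of the 10 had an unadjusted p under 0.05, beside 6.48% of all tested genes. The 8 endothelial markers summed to 63.7 to 116 CPM with anti-B7-H3, 88.3 to 96.7 with anti-PD1 and 77.3 to 105 with IgG. Only 1 of the 8 was positive for anti-B7-H3 over anti-PD1 (median log2 fold change -0.29), the direction of Ptn. The 8 pericyte and smooth muscle markers summed to 356 to 422, 281 to 384 and 228 to 419 CPM in the same order. Of these, 5 of 8 were positive, with a median of 0.32. The 10 Schwann cell and neural crest markers summed to 71.7 to 112 CPM with anti-B7-H3, 90.6 to 147 with anti-PD1 and 86.2 to 135 with IgG. The 8 skeletal muscle markers were the most uneven, at 254, 0.945 and 1500 CPM in anti-B7-H3 libraries, 61.9, 1030 and 441 CPM in anti-PD1 libraries and 25.7, 48.2 and 24.4 CPM with IgG. Without the library highest in muscle genes of each antibody group, the Ptn log2 fold change was -1.33 for anti-B7-H3 over anti-PD1, -0.58 for anti-B7-H3 over IgG and 0.75 for anti-PD1 over IgG. The 8 neuron markers summed to 37.4, 65.3 and 79.4 CPM in anti-B7-H3 libraries, 19.6, 21.7 and 36.5 CPM in anti-PD1 libraries and 61.3, 48.8 and 59.8 CPM in IgG libraries, so that the antibody groups did not overlap and ran opposite to Ptn. Most of that sum was Nefl and Tubb3, and Elavl4 had no reads in the anti-B7-H3 libraries. Of the 5 neuron markers tested, only 2 were higher with anti-B7-H3 than with anti-PD1 (median log2 fold change -0.36), so the sum does not stand for the list. What part these other markers have in the Ptn levels was not tested.

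Mdk, the second ligand, was near the limit of detection. Its estimated reads were 9, 8 and 14 in anti-B7-H3 libraries, 3, 10 and 4 in anti-PD1 libraries, and 0, 7 and 2 with IgG. In the IgG library with no reads, a count of 0 allows up to 0.584 CPM (3 reads, counting error only). On the per-length scale, which divides CPM by kilobases of coding sequence, Mdk averaged 0.822 ± 0.283 with anti-B7-H3, 0.636 ± 0.340 with anti-PD1 and 1.34 ± 1.17 with IgG (SD, n = 3 each). Ptn averaged 45.3 ± 10.2 CPM per kilobase with anti-B7-H3, 130 ± 25.3 with anti-PD1 and 72.1 ± 10.8 with IgG, so Ptn was far above Mdk per length in each group. No Mdk difference passed in edgeR: the log2 fold change was -0.64 ± 0.90 (SE) in anti-B7-H3 and -0.97 ± 0.94 in anti-PD1 libraries, both over IgG, and 0.33 ± 0.80 between anti-B7-H3 and anti-PD1. The 95% interval of the last one, -1.44 to 2.09, is too wide to say that the antibody groups were alike.

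The receptor genes Ptprz1 and Alk had few reads, most of them near the density of genes that should be silent. Ptprz1 had 5, 2 and 3 estimated reads in anti-B7-H3 libraries, 2, 4 and 4 in anti-PD1 libraries, and 19, 6 and 16 with IgG. At the read density of olfactory and vomeronasal receptor genes, a gene of its coding length would have had 6.14, 2.39 and 2.48 reads in anti-B7-H3 libraries, 6.35, 2.77 and 4.60 in anti-PD1 libraries, and 20.8, 11.6 and 26.0 with IgG. Observed Ptprz1 reads were thus 0.814 to 1.21 times that background with anti-B7-H3, 0.315 to 1.44 times with anti-PD1 and 0.517 to 0.913 times with IgG. Ptprz1 did not pass the read filter and has no edgeR result.

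Alk was measured the same way. Its estimated reads were 8, 0 and 2 in anti-B7-H3 libraries, 5, 6 and 3 in anti-PD1 libraries, and 22, 6 and 23 with IgG. These were 0 to 1.86 times the receptor background for its coding length with anti-B7-H3, 0.932 to 3.09 times with anti-PD1 and 0.738 to 1.51 times with IgG. In the anti-B7-H3 library with no Alk reads, a count of 0 allows up to 0.0834 CPM. The minimum level of the read filter was reached for Alk in 2 IgG libraries, 1 anti-B7-H3 library (replicate 1) and 0 anti-PD1 libraries. Its log2 fold changes against IgG were -5.17 ± 1.25 (SE) in anti-B7-H3 and -4.31 ± 1.20 in anti-PD1 libraries, neither past the threshold in edgeR (adjusted p = 0.102 and 0.115). DESeq2 called both (log2 fold change -5.17, adjusted p = 1.7e-04 for anti-B7-H3, and -4.37, adjusted p = 0.00267 for anti-PD1). Most genes called against IgG were lower with antibody. In edgeR 71 were lower and 1 higher with anti-B7-H3, and 50 lower and 1 higher with anti-PD1. In DESeq2 these were 470 and 26, and 635 and 179. With the receptor background as a covariate, an alternative chosen after seeing the data, the Alk values were 0.94 for anti-B7-H3 and 1.17 for anti-PD1, neither called. That background was higher in every IgG library than in any antibody library, so this fit cannot separate it from treatment. Of all tested genes it called only 0% for anti-B7-H3 and 0.0386% for anti-PD1 against IgG. Between anti-B7-H3 and anti-PD1 the Alk groups overlapped, with a log2 fold change of -0.86 ± 1.27 that moved to -2.89 without anti-B7-H3 replicate 1, to -0.18 without replicate 2 and to -0.39 without replicate 3. Neither peptide ligand of the Alk receptor passed the read filter. Alkal1 had no reads in any library, Alkal2 had none with anti-B7-H3, and together they summed to 0 to 0.146 CPM with anti-PD1 and 0.112 to 3.68 CPM with IgG. Without the filter, edgeR called Alkal2 for anti-B7-H3 over IgG (log2 fold change -7.33, adjusted p = 0.0409), beside 5.08% of all genes. Its reads were not set beside the receptor background.

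**Figure D2:**
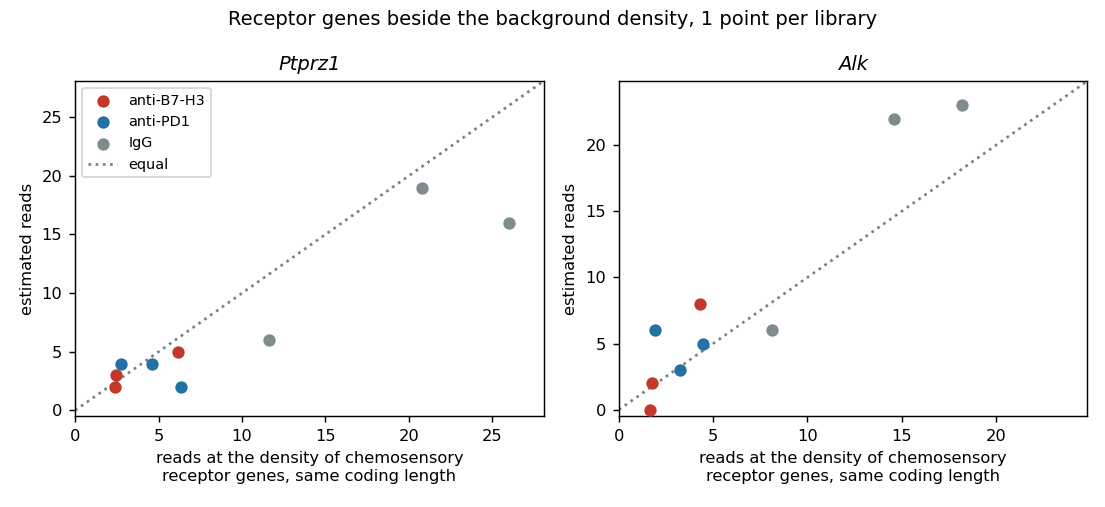
Estimated reads of Ptprz1 and Alk (vertical axes) against the reads a gene of the same coding length would have at the density of olfactory and vomeronasal receptor genes (horizontal axes), 1 point per library, with a dotted line where both are equal. The IgG libraries lie farthest to the right, and Ptprz1 lies at 0.315 to 1.44 times the line in all 9 libraries.

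No syndecan difference passed in any comparison, but Sdc3 and Sdc4 lay apart between the antibodies. Sdc4, a syndecan of focal adhesions, had 45.8, 57.5 and 69.1 CPM in anti-B7-H3 libraries, 32.3, 35.8 and 38.7 CPM in anti-PD1 libraries, and 58.6, 47.5 and 21.6 CPM with IgG. Each anti-B7-H3 library was above each anti-PD1 library, and the IgG libraries overlapped both groups. Sdc4 averaged 57.5 ± 11.6 CPM in anti-B7-H3 and 35.6 ± 3.22 CPM in anti-PD1 libraries (SD, n = 3 each). The log2 fold change was 0.69 ± 0.29 (SE), its 95% interval ran between 0.06 and 1.33, and it did not pass (edgeR adjusted p = 0.749). Over IgG, Sdc4 stood at 0.41 ± 0.29 for anti-B7-H3 and -0.28 ± 0.29 for anti-PD1 (edgeR adjusted p = 0.678 and 0.643).

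Sdc3, the syndecan described as a pleiotrophin receptor, had 41.9, 44.3 and 35.7 CPM in anti-B7-H3 libraries, 24.6, 29.8 and 34.1 CPM in anti-PD1 libraries, and 47.5, 46.0 and 28.5 CPM with IgG. The antibody groups again did not overlap, with anti-B7-H3 above anti-PD1, by 0.46 ± 0.21 on the log2 scale (95% interval -0.01 to 0.93; edgeR adjusted p = 0.749). Against IgG its log2 fold change was -0.02 ± 0.22 in anti-B7-H3 and -0.48 ± 0.22 in anti-PD1 libraries (edgeR adjusted p = 0.991 and 0.27). Sdc3 and Sdc4 were both lower in the anti-PD1 libraries, where Ptn was higher. The summed CPM of the neuron markers, 37.4 to 79.4 with anti-B7-H3 and 19.6 to 36.5 with anti-PD1, ran in the direction of Sdc3. Of the 5 neuron markers tested, only 2 did so, with a median log2 fold change of -0.36 for anti-B7-H3 over anti-PD1. Their part in the Sdc3 levels was not tested.

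Sdc1, which marks plasma cells and epithelia, had 27.7, 40.1 and 51.2 CPM in anti-B7-H3 libraries, 32.9, 35.9 and 30 CPM in anti-PD1 libraries, and 45.0, 32.6 and 23.0 CPM with IgG. The 3 groups overlapped. Over IgG its log2 fold change was 0.23 ± 0.27 (SE; 95% interval -0.36 to 0.81) for anti-B7-H3 and -0.04 ± 0.27 (-0.63 to 0.54) for anti-PD1. Between anti-B7-H3 and anti-PD1 it was 0.27 ± 0.26 (-0.30 to 0.84). The 8 plasma cell markers overlapped too, at 28.3 to 38.2 summed CPM with anti-B7-H3, 28.3 to 51.8 with anti-PD1 and 28.4 to 30.6 with IgG. The 8 keratinocyte markers summed to 0.611 to 2.25 CPM with anti-B7-H3, 1.06 to 2.62 with anti-PD1 and 11.5 to 31.3 with IgG. Only 1 of these 8, Dsp, passed the read filter, and the IgG libraries were also the highest in receptor background.

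The balance between syndecans does not depend on how libraries are scaled. As shares of the summed TPM (the deposited level per effective length) of Sdc1 to Sdc4, Sdc4 took 40.4, 39.1 and 42.5% in anti-B7-H3 libraries, 23.8, 28 and 32.3% in anti-PD1 libraries, and 41.4, 37.9 and 19.8% with IgG. Sdc2, the fibroblast and endothelial syndecan and the family member outside the chosen 8, took 32.4, 34.5 and 31.9% in anti-B7-H3 libraries, 54.9, 43.9 and 42.9% in anti-PD1 libraries, and 29.8, 35 and 50.8% with IgG. Thus Sdc4 was the leading syndecan in every anti-B7-H3 library and Sdc2 in every anti-PD1 library, while IgG replicate 3, the shallowest library outside the genes over 1%, had Sdc2 in the lead as in the anti-PD1 libraries. The shares were not tested. As a level, Sdc2 averaged 47.8 ± 8.72 CPM in anti-B7-H3 and 62.4 ± 12.6 CPM in anti-PD1 libraries, groups that overlapped (log2 fold change -0.38 ± 0.21, edgeR adjusted p = 0.766).

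**Figure D3:**
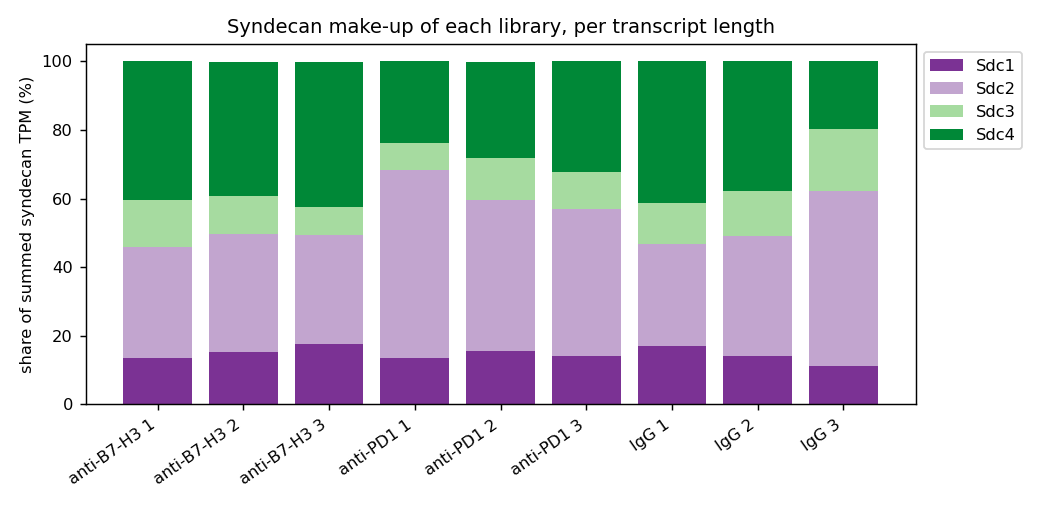
Shares of the summed TPM of the 4 syndecan genes (vertical axis, %) in each library (horizontal axis). Sdc4 takes 39.1 to 42.5% in anti-B7-H3 libraries and 23.8 to 32.3% in anti-PD1 libraries, and Sdc2 takes 31.9 to 34.5% in anti-B7-H3 and 42.9 to 54.9% in anti-PD1 libraries.

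Ncl, nucleolin, was lower in every anti-B7-H3 library than in any anti-PD1 library, without passing the test. It had 190, 234 and 159 CPM in anti-B7-H3 libraries, 301, 246 and 259 CPM in anti-PD1 libraries, and 240, 216 and 254 CPM with IgG. The log2 fold change of anti-B7-H3 over anti-PD1 was -0.47 ± 0.20 (SE; 95% interval -0.91 to -0.02; edgeR adjusted p = 0.749), in the direction of Ptn. Against IgG the values were -0.29 ± 0.20 in anti-B7-H3 and 0.18 ± 0.20 in anti-PD1 libraries (edgeR adjusted p = 0.672 and 0.668).

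Levels per kilobase of coding sequence set the genes side by side, but their order depends on the length used and was not tested. With anti-B7-H3, Sdc4 (96.3 ± 19.5) and Ncl (91.4 ± 17.8) led, ahead of Ptn (45.3 ± 10.2), Sdc1 (42.4 ± 12.6) and Sdc3 (30.6 ± 3.35). Sdc4 and Ncl did not differ beyond their spread there, nor did Ptn and Sdc1. With anti-PD1, Ptn (130 ± 25.3) and Ncl (126 ± 13.5) led without differing beyond their spread, ahead of Sdc4 (59.6 ± 5.39), Sdc1 (35.2 ± 3.17) and Sdc3 (22.2 ± 3.59). With IgG the order was Ncl (112 ± 8.96), Ptn (72.1 ± 10.8), Sdc4 (71.3 ± 31.8), Sdc1 (35.8 ± 11.8) and Sdc3 (30.6 ± 7.94), with overlap between neighbours after Ncl. On the deposited TPM, which uses effective length, Ncl was not set apart with IgG. There Ncl averaged 12.9 ± 5.34, Ptn 11.9 ± 6.67 and Sdc4 11.5 ± 7.21 (SD, n = 3 each). In anti-B7-H3 libraries Sdc4 had 136, 245 and 290 TPM and Ncl 131, 218 and 158, so Sdc4 was above Ncl in each. Mdk, Alk and Ptprz1 averaged at most 1.34 CPM per kilobase in any group.

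Counted over the set, edgeR called no member in the pairwise comparisons, and Ptn in the test over the 3 groups. Against IgG, anti-B7-H3 had 0 of 7 tested members past an adjusted p of 0.05, beside 0.555% of the 12965 tested genes. Leaving out Ptn, 1 of 6 (Alk) had an unadjusted p under 0.05 in edgeR, beside 10.5% of tested genes. Ptn was under it too, but was chosen on these same antibody libraries. DESeq2 called 1 (Alk), beside 3.83% of tested genes, and limma-voom 0, beside 0.347%. With anti-PD1, 0 of 7 passed beside 0.393% of all tested genes. Without Ptn, which was again under it, 2 of 6 (Alk and Sdc3) had an unadjusted p under 0.05, beside 18.5%. DESeq2 called 2 (Ptn and Alk), beside 6.28% of tested genes, and limma-voom 0, beside 0.262%. Ptn was chosen on the antibody libraries and Alk passed the read filter mainly through IgG libraries, so these counts only describe them. Between the antibodies, leaving out Ptn, 0 of 6 passed beside 0% of all tested genes, with 2 (Sdc4 and Ncl) under an unadjusted 0.05, beside 6.48%. DESeq2 called 0 of the 6, beside 0.185% of tested genes, and limma-voom 0, beside 0%. In the edgeR test over the 3 groups Ptn had an adjusted p of 0.0253. With single libraries left out, Ptn passed only without IgG replicate 2, anti-B7-H3 replicate 1 or anti-PD1 replicate 3. The test over the 3 groups holds the contrast by which Ptn was chosen and is no evidence for it. Of the other members 0 of 6 passed there, beside 1.14% of tested genes, with 1 (Alk, edgeR adjusted p = 0.082) under an unadjusted 0.05, beside 14% of tested genes.

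Between the antibodies, groups did not overlap for 3 of the 6 other members, beside 15.4% of all tested genes. Sdc3 and Sdc4 were above, beside 7.55% of tested genes, and Ncl below, beside 7.89%. With anti-B7-H3 over IgG, leaving out Ptn, it was 1 of 6, Alk, beside 16.3% of tested genes. Alk lay below (8.53%) and 0 lay above (7.72%). With anti-PD1 over IgG it was also 1 of 6, beside 23%, with Alk below (11.9%) and 0 above (11.1%). Ptn did not overlap IgG in either comparison, but was chosen on these antibody libraries. The members were chosen with earlier results known, so these shares are a description.

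**Figure D4:**
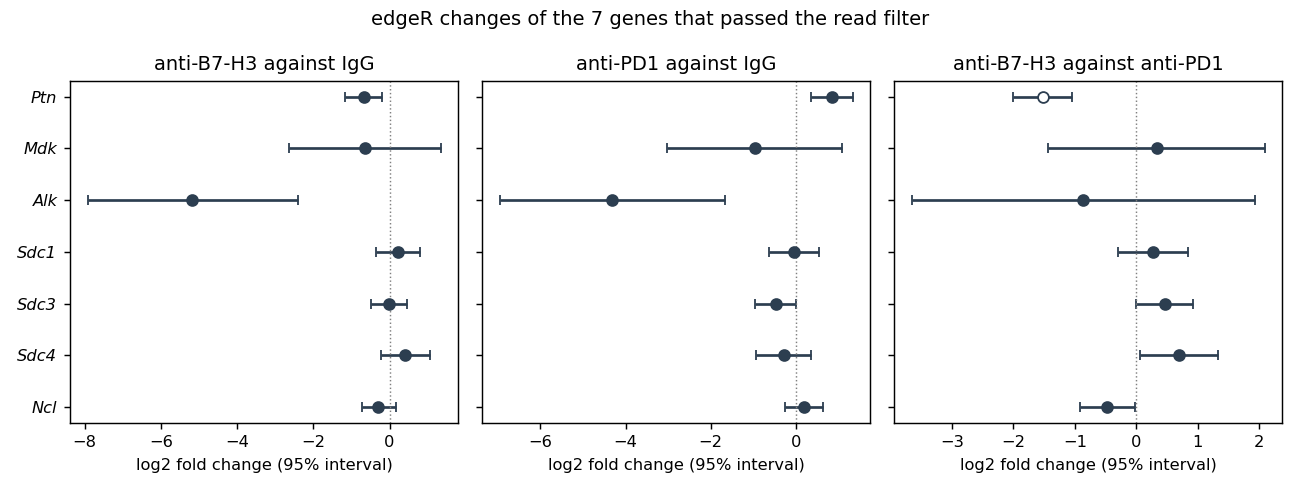
log2 fold changes (horizontal axes) with 95% intervals from edgeR for the 7 genes that passed the read filter, in 3 comparisons. The open circle marks the contrast by which Ptn was chosen, at -1.52, and the widest intervals belong to Alk and Mdk.

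Around the ligands and receptors, 94 further pathway genes were listed, of which 84 were tested. With anti-B7-H3 over IgG 0 passed in edgeR, with 7 at an unadjusted p under 0.05 (8.33%, beside 10.5% of all tested genes), 1 called by DESeq2 (beside 3.83% of all tested genes) and 0 by limma-voom. With anti-PD1 over IgG 0 passed, with 14 under an unadjusted 0.05 (16.7%, beside 18.5%), 3 called by DESeq2 (beside 6.28%) and 0 by limma-voom. Between the antibodies 0 passed, with 7 under an unadjusted 0.05 (8.33%, beside 6.48%), and DESeq2 and limma-voom called 0. The median log2 fold changes were 0.11, 0.08 and 0.05 in these comparisons, beside 0.03, 0.01 and 0.01 over all tested genes.

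Further reported receptors had 13 of 16 genes tested. Between the antibodies the smallest p belonged to Itgb3, an integrin chain proposed as a pleiotrophin receptor with integrin alpha V, at 9.37 CPM in anti-B7-H3 and 5.74 CPM in anti-PD1 libraries (log2 fold change 0.71 ± 0.21), and to the lipoprotein receptor gene Lrp8 at 14.5 CPM in anti-B7-H3 and 9.65 CPM in anti-PD1 libraries (0.59 ± 0.22). Both had an edgeR adjusted p of 0.749. Against IgG, anti-PD1 libraries were led by Nrp1, a co-receptor for semaphorins and VEGF, at 0.69 ± 0.18, and Lrp8 at -0.74 ± 0.23 (edgeR adjusted p = 0.0957 and 0.137). Anti-B7-H3 libraries were led by Itga4, a leukocyte integrin chain, at 1.24 ± 0.32, and Gpc2, a glypican, at -2.36 ± 0.95 (edgeR adjusted p = 0.129 and 0.378). Gpc2 was near the limit of detection, at 0.256 CPM with anti-B7-H3 and 1.58 ± 1.43 CPM (SD) with IgG, where 3 reads make 0.335 to 1.38 CPM. Beside Itga4, the 8 macrophage and monocyte markers summed to 293 to 702 CPM with anti-B7-H3, 254 to 843 with anti-PD1 and 133 to 231 with IgG. The highest sums, 702 and 843 CPM, were in the libraries highest in skeletal muscle genes of each antibody group. All 8 had positive log2 fold changes over IgG, with a median of 1.28 for anti-B7-H3 and 1.12 for anti-PD1. In edgeR 0 passed, with 7 and 5 under an unadjusted 0.05, beside 10.5% and 18.5% of all tested genes. Their part in the Itga4 difference was not tested.

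Enzymes of heparan sulfate, the sugar to which both ligands bind, had 19 of 20 genes tested. B3galt6, which builds the linker of the chain, was at 2.52 CPM with anti-PD1 and 6.41 CPM with IgG (-1.33 ± 0.28, edgeR adjusted p = 0.0641). This was the smallest adjusted p of the pathway genes, and Hs6st2, a sulfotransferase, followed it in this list at -1.99 ± 0.66. Hs6st2 was also near the limit of detection, at 0.409 CPM with anti-PD1 and 1.84 ± 1.20 CPM (SD) with IgG. With anti-B7-H3 over IgG, B3galt6 stood at -0.72 ± 0.27 and Ext1, a chain polymerase, at 0.53 ± 0.20. Between the antibodies Hpse, the heparanase that cuts the chains, stood at 1.05 ± 0.34 and Sulf1, which strips sulfates from them, at -0.84 ± 0.30 (edgeR adjusted p = 0.749 for both). Sulf1 had 38.6 CPM in anti-B7-H3 and 69.4 CPM in anti-PD1 libraries, without overlap, the same direction as Ptn. Most of the list ran the other way: 14 of the 19 were positive for anti-B7-H3 over anti-PD1, with a median of 0.12. Without overlap, 6 lay above and 2 below, beside 7.55% and 7.89% of all tested genes.

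Chondroitin sulfate enzymes, which make the chains that Ptprz1 carries, had 12 of 15 genes tested. Dse, an epimerase that turns chondroitin into dermatan sulfate, stood at 0.58 ± 0.19 in anti-B7-H3 and 0.81 ± 0.19 in anti-PD1 libraries against IgG (edgeR adjusted p = 0.255 and 0.0795), above every IgG library in both. The sulfotransferase gene Chst7 stood at -0.44 ± 0.31 in anti-B7-H3 and -1.09 ± 0.32 in anti-PD1 libraries over IgG. Between anti-B7-H3 and anti-PD1 it stood at 0.65 ± 0.29, and Chpf2, a polymerizing factor, at 0.60 ± 0.38. Syndecan partners and sheddases had 11 of 12 tested, led by Sdcbp (syntenin, which binds syndecan tails) at 0.54 ± 0.23 in anti-B7-H3 and 0.47 ± 0.23 in anti-PD1 libraries against IgG (edgeR adjusted p = 0.409 and 0.291). The sheddase gene Adam17 stood at 0.41 ± 0.19 with anti-B7-H3 and Cask, a syndecan-binding scaffold, at 0.42 ± 0.21 with anti-PD1, and between the antibodies Gipc1 and Tiam1 at 0.41 ± 0.25 and 0.69 ± 0.48.

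Among 16 genes for Ptprz1 substrates and Alk signalling, all tested, Ctnnb1 (beta-catenin) had 296 CPM with anti-PD1 and 216 CPM with IgG, with 0.45 ± 0.20 as log2 fold change (edgeR adjusted p = 0.246), and Pik3ca stood at 0.35 ± 0.19. With anti-B7-H3 against IgG the kinase Fyn stood at 0.46 ± 0.21 and Hif1a at 0.32 ± 0.22, and between the antibodies Src at 0.43 ± 0.21 and the Ptprz1 substrate Add1 at -0.29 ± 0.16. The 13 nucleolar genes, listed for comparison with Ncl, were all tested and none passed. Between the antibodies 3 of 13 were positive with a median of -0.08 beside 0.01 over all tested genes, led by Nop10 at -0.70 ± 0.39 and Rrp9 at 0.35 ± 0.23. Against IgG they were led by Fbl at -0.36 ± 0.18 and Polr1b at 0.25 ± 0.17 with anti-B7-H3, and by Nop10 at 1.09 ± 0.45 and Nop58 at 0.41 ± 0.27 with anti-PD1.

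Genes with the profile most like Ptn were ranked by the root mean square difference of log2 CPM, each gene centred on its own mean, over the 9 libraries. Of 10546 candidates, with a median difference of 0.725, the nearest was Cenpk, a kinetochore subunit, at 0.291 log2 units, followed by Lrrc17 at 0.326, Rpl10 (a ribosomal protein gene) at 0.330, Itga8 (an integrin chain of mesenchymal cells) at 0.332, Prss23 at 0.337, Gulp1 at 0.338, Fbln5 (an elastic fibre protein) at 0.355 and Ssbp2 at 0.358. The log2 fold changes of these 8 between anti-B7-H3 and anti-PD1 lay from -1.62 (Rpl10) to -0.76 (Ssbp2), beside -1.52 for Ptn. Against IgG with anti-PD1 they lay between 0.57 (Gulp1) and 1.22 (Lrrc17), beside 0.84 for Ptn, and with anti-B7-H3 between -0.54 (Rpl10) and -0.02 (Lrrc17 and Prss23), beside -0.67 for Ptn. All of these values follow from the choice of Ptn and of genes near it.

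**Figure D5:**
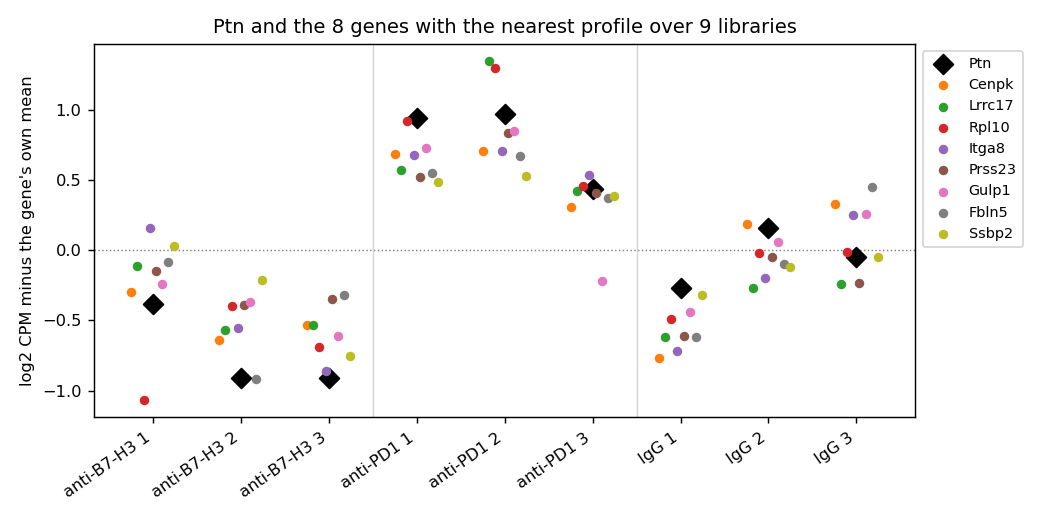
log2 CPM minus the gene's own mean (vertical axis) for Ptn (black diamonds) and the 8 genes with the nearest profile (coloured points) in each library (horizontal axis). Ptn lies between 0.44 and 0.97 in anti-PD1 libraries, between -0.91 and -0.38 in anti-B7-H3 libraries and between -0.27 and 0.16 in IgG libraries.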

How the data were processed

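Total RNA depleted of ribosomal RNA was sequenced from 9 tumor samples. Per the file headers, the authors deposited estimated counts per transcript and TPM scaled by effective length, with a quantifier not given in the sources used here. Of the tools, the submitters' processing notes list FastQC 0.11.8 and GRCm38. Of 58083 transcripts, 57409 matched GENCODE M21, and the 674 others held 0.105 to 0.369% of reads. Listed lengths equalled the coding sequence for 92.2% of matched coding transcripts. Estimated counts were summed per gene, rounded and tested with edgeR 4.0.16 in R 4.3.3: TMM, filterByExpr at a minimum of 10 (12965 genes kept), robust quasi-likelihood, group only, all 9 libraries, Benjamini-Hochberg at 0.05. DESeq2 1.42.0 and limma-voom 3.58.1 were alternatives, with other scalings, filters and left-out libraries. For levels by length CPM was divided by coding length. Syndecan shares and the second view of gene order used the deposited TPM summed per gene. The members and gene lists were chosen with earlier results of these data known. Named genes are the members, the 2 pathway genes of each list with the smallest p in each comparison, and the 8 profiles nearest Ptn among genes with a mean of at least 1 log2 CPM. Sequences are from GENCODE M21.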

Additional observations from a re-analysis of the deposited data

How the results depend on the processing

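The counts of members called were recomputed under 20 alternatives, 18 of them planned and 2 chosen after seeing the data (the receptor background covariate and leaving out both libraries highest in skeletal muscle genes). For anti-B7-H3 against IgG the count of 0 became 1 with DESeq2 (Alk), 6 with library totals, 1 without the genes over 1% of a library (Ptprz1) and 2 without a filter on low counts (Alk and Ptprz1), and 0 to 1 with single libraries left out. The 1 call, Alk, came without IgG replicate 2 or anti-B7-H3 replicate 1 (log2 fold changes -5.76 and -7.19). For anti-PD1 against IgG it became 2 with DESeq2 (Ptn and Alk), 6 with library totals, 1 without the genes over 1% (Ptprz1) and 2 without the filter (Ptn and Ptprz1), and 0 to 1 with single libraries left out (Alk without IgG replicate 2, -4.89). Between the antibodies, leaving out Ptn, it was 0 under every alternative run. For any difference among the 3 groups, leaving out Ptn, it ran from 0 to 1 with single libraries left out (Alk, without IgG replicate 2 or anti-B7-H3 replicate 1), and there Ptprz1 also passed without the genes over 1% (adjusted p = 0.0181), Alk and Ptprz1 without the filter (0.0268 and 0.00459), and Mdk, Sdc1, Sdc3, Sdc4 and Ncl with library totals. Pathway genes called against IgG were 1 (anti-B7-H3) and 3 (anti-PD1) with DESeq2, 83 and 82 with library totals, and 4 and 3 without the filter, and 1 with anti-PD1 without the genes over 1%; with single libraries left out they ran from 0 to 0 with anti-B7-H3 and from 0 to 1 with anti-PD1. Library totals put the median of all tested genes at 3.37 for anti-B7-H3 and 3.15 for anti-PD1 against IgG, and those counts follow that shift. Over all tested genes the share called for anti-B7-H3 and for anti-PD1 against IgG was 3.83 and 6.28% with DESeq2, 96.7 and 95.1% with library totals, 2.90 and 1.97% without the genes over 1%, and 5.08 and 3.39% without the filter.

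Of 400 recomputed log2 fold changes of members, 363 kept direction and side of the threshold and 23 reversed. With library totals, anti-B7-H3 against IgG gave Ptn 2.61, Mdk 2.49, Sdc3 3.29 and Ncl 3.11, and anti-PD1 against IgG gave Mdk 2.01, Sdc1 3.12, Sdc3 2.67 and Sdc4 2.86, to be read against those medians. With the receptor background as a covariate, anti-B7-H3 against IgG gave Alk 0.94, Sdc1 -0.69, Sdc4 -0.65 and Ncl 0.01, and anti-PD1 against IgG gave Alk 1.17, Sdc1 -0.74 and Sdc4 -1.10. This covariate set every IgG library apart from the antibody libraries, so that fit cannot tell background from treatment. Without the filter, Sdc3 was 0.21 (anti-B7-H3) and Sdc1 0.17 (anti-PD1) against IgG. With single libraries left out, anti-B7-H3 against IgG ran from -1.26 to 0.13 for Mdk and from -0.20 to 0.11 for Sdc3, and anti-PD1 against IgG from -0.23 to 0.23 for Sdc1 and from -0.57 to 0.01 for Sdc4. Without both libraries highest in skeletal muscle genes Sdc3 was 0.07 with anti-B7-H3. The cause was not tested. With the replicate block, 0 members were called in each pairwise comparison, and Ptn was -0.68 for anti-B7-H3 against IgG. Correlations of deviations between libraries of the same number ran from -0.324 to 0.18, and between libraries of different numbers from -0.434 to 0.522. With 3 libraries per group this spread cannot show whether the numbers pair the samples, and the labels do not say. Depth limits Mdk, Ptprz1 and Alk, which had 0 to 23 reads per library.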
